A study of Mus musculus with 15 samples.

Results

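Hepatocytes clear surplus histidine through 4 enzymes in a row, and the last of them hands a carbon group to tetrahydrofolate, the carrier that also takes up the carbon of serine and passes it on as formate. The 10 genes described here, Hal, Uroc1, Amdhd1, Ftcd, Mthfd1, Mthfd1l, Mthfd2l, Aldh1l1, Shmt1 and Shmt2, encode the enzymes of histidine breakdown, formate handling and serine hydroxymethyl transfer. They were taken by symbol from the 55984 gene symbols of the count table, whatever their values. All 10 were among the 17488 genes that passed the filter on low counts.

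RNA was measured by RNA-seq in hepatocytes from wild-type (WT) adult male C57BL/6JJcl mice, stained with the DNA dye Hoechst and sorted by flow cytometry. No transgene, deletion or drug distinguished the groups: the 2n-whole population held diploid cells, 4n-whole held all tetraploid cells, and the tetraploid cells were also divided by the height of the Hoechst signal into 4n-bottom, enriched for binucleated cells, and 4n-top, enriched for mononucleated cells after a single round of sorting and still holding many binucleated cells. Each population came from the same 4 mice, except that the 4n-top library of mouse 1 was not analysed here, which leaves 15 libraries. After sorting, 2n cells were pelleted in a faster spin than 4n cells, so this step cannot be told apart from ploidy.

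Library totals ran from 22049498 to 42096421 counts, and 3 counts corresponded to between 0.0692 and 0.120 CPM, the unit of counts scaled to the TMM-corrected library total. The hepatocyte markers, led by albumin, summed to between 77250 and 107600 CPM in every library. Of 23 markers of endothelial, Kupffer, stellate, biliary cells and leukocytes, 19 passed the filter and 0 were at 0 in all libraries. Their summed level was 54.1 to 68.8 CPM in 2n-whole, 21.7 to 55.0 CPM in 4n-whole, 27.4 to 52.3 CPM in 4n-bottom and 26.2 to 46.8 CPM in 4n-top. The difference between the mean log2 CPM of 14 pericentral and 12 periportal markers, a score of lobular position, lay between -6.88 and -6.05 in 2n-whole, between -5.58 and -4.10 in 4n-whole, between -5.77 and -4.84 in 4n-bottom and between -6.08 and -4.29 in 4n-top.

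In the first step of histidine breakdown Hal removes ammonia to give urocanate, Uroc1 adds water to it, Amdhd1 opens the ring, and Ftcd moves the formimino group of the product onto tetrahydrofolate. In the cytosol Mthfd1 interconverts the carbon groups carried by folate, Aldh1l1 oxidises the formyl group to carbon dioxide, and Shmt1 exchanges a carbon between serine and glycine. In mitochondria Shmt2 takes the carbon from serine, Mthfd2l oxidises it, and Mthfd1l releases it as formate. The liver is the main organ of histidine breakdown, and its histidine and serine breakdown enzymes are known to be more abundant toward the portal vein.

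In GRCm39, 5 of the 10 genes lie on chromosome 10 and 2 on chromosome 6. Hal (chr10:93324629-93355166, plus strand) and Amdhd1 (chr10:93359198-93375895, minus strand) end toward each other, 4031 bases apart, with 0 coding genes between them. Uroc1 (chr6:90310266-90341740) and Aldh1l1 (chr6:90463409-90577185), both on the plus strand, are separated by 121668 bases that hold 3 coding genes. The other 3 genes of chromosome 10, Ftcd (chr10:76411475-76426245, plus strand), Mthfd1l (chr10:3922870-4117081, plus strand) and Shmt2 (chr10:127352266-127358323, minus strand), are scattered along it. Mthfd1 is at chr12:76301984-76366588 (plus strand), Mthfd2l at chr5:91078920-91169231 (plus strand) and Shmt1 at chr11:60661185-60708167 (minus strand). Of these genes, Hal, Uroc1, Amdhd1 and Ftcd overlap no other annotated gene. Shmt1 overlaps Top3a on its own strand and Smcr8 on the opposite strand, and Shmt2 overlaps Ndufa4l2 on the opposite strand. Mthfd1, Mthfd1l, Mthfd2l, Aldh1l1 and Shmt1 overlap predicted genes, which for Mthfd1, Mthfd2l and Shmt1 all lie on the opposite strand. The strand setting of the counting is not given in the sources used here, so reads from the overlapped stretches cannot be assigned with certainty.

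The sequences just upstream of the start of the canonical transcript (GENCODE vM39, GRCm39) differed in base composition between the genes. They are shown for Hal and Ftcd, the first and last genes of histidine breakdown, for the cytosolic Mthfd1, and for the last 30 bases before the start of Mthfd1l, the gene that was called lower in tetraploid cells. Capitals mark matches, on either strand, to any of 5 short motifs. For the usual core promoter element they are TATAAA, for the element bound by NF-Y the letters CCAAT, for the GC box bound by Sp factors the letters GGGCGG, for the core of the cAMP response element the letters TGACG, and for the site of C/EBP factors the letters TTGCNNAA. The windows are chr10:93324379-93324628, chr10:76411225-76411474, chr12:76301734-76301983 and the end of chr10:3922822-3923071, all on the plus strand, 5′ to 3′.
Hal: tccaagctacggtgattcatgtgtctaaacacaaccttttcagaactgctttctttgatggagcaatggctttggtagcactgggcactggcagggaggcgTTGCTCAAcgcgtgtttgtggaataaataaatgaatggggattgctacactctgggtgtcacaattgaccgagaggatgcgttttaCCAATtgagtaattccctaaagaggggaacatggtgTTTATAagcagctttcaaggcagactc
Ftcd: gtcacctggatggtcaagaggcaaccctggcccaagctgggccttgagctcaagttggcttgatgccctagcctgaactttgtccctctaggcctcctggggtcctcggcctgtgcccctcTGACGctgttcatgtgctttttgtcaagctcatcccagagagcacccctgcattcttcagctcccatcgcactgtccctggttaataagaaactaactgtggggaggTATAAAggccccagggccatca
Mthfd1: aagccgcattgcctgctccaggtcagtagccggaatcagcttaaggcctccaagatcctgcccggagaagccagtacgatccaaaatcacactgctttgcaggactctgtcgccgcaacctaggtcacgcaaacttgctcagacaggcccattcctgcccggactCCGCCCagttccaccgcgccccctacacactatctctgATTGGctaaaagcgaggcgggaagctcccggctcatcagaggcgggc
Mthfd1l: cgctggcccCCGCCCtgttaaCGTCAcggc

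The Hal window held a TATA box match, read on the minus strand, 27 bases before the start, a CCAAT box at 63 and a C/EBP match at 149. Ftcd held a TATA box match at 22 bases and TGACG at 129 bases. Mthfd1 had no TATA box match but a CCAAT box at 47 and a GC box at 85 bases, both read on the minus strand. Mthfd1l had a GC box at 21 and TGACG at 9 bases, both also read on the minus strand. Across the 250-base windows of 21770 coding genes, the TATA box, TATAAA, was present in 11.9%, a CCAAT box in 36.5%, a GC box in 36.3%, TGACG in 18.0% and TTGCNNAA in 9.34%. Among the 10 genes these matches were present in 3, 5, 5, 3 and 2 windows. The E-box CACGTG, present in 6.26% of all windows, was found in 0 of the 10. The composite C/EBP and ATF element TGATGNAAT was in 0.80% of all windows and the HNF4 motif CAAAGTCCA was in 0.37%, and again 0 of the 10 held either. The observed over expected CpG ratio was 0.699 in Mthfd1, 0.613 in Shmt2 and 0.592 in Shmt1, against a median of 0.474 over all coding genes. Uroc1 held 0 CpG in its window, and Ftcd had a ratio of 0.153. Such matches describe the letters only.

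Per kilobase of exon, Aldh1l1 was the most abundant of the 10 genes, with a mean over the populations of 269 CPM per kb. Uroc1, Hal and Ftcd followed at 179, 164 and 145 CPM per kb, and the libraries of these 3 genes overlapped. Amdhd1, Mthfd1 and Shmt2 were at 75.8, 63.6 and 60.4 CPM per kb and overlapped likewise. Shmt1 stood alone below them at 24.6 CPM per kb. Mthfd1l and Mthfd2l, both mitochondrial, were far lower, at 0.313 and 0.0922 CPM per kb, and overlapped each other in part. Of the mitochondrial members, Shmt2 thus had the most transcript, and the libraries held little of Mthfd2l and Mthfd1l, whose enzymes act after it on the way to formate.

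**Figure D1:**
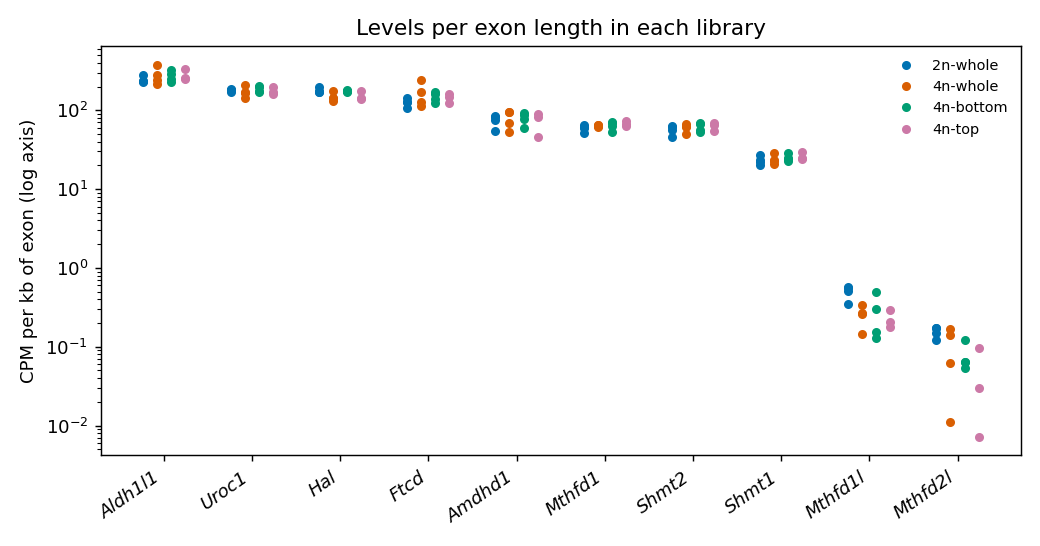
Each point is 1 library, the y axis is CPM per kb of exon on a log scale, and colours mark the 4 populations. Aldh1l1 was highest (mean 269 CPM per kb), while Mthfd1l (0.313) and Mthfd2l (0.0922) sat far below the other 8 genes.

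The first comparison asked what separates tetraploid from diploid hepatocytes. Called genes had an adjusted p under 0.05 (edgeR's quasi-likelihood test, Benjamini-Hochberg adjustment over 17488 genes) and a log2 fold change beyond 0.5 in either direction. Between 4n-whole and 2n-whole, 1 of the 10 genes was called, Mthfd1l, which was lower in 4n-whole. Of all tested genes 3.47% were called. An unadjusted p under 0.05 was reached by 3 of the 10 (20.4% of all genes). The median size of the log2 fold change, without its sign, was 0.14 over the 10 genes and 0.30 over all tested genes. Between 4n-bottom and 2n-whole 0 of the 10 were called (0.463% of all genes) and 1 had an unadjusted p under 0.05 (10.2% of all genes). DESeq2 called 1 of the 10 there, but it also called more of all genes than edgeR, as counted further below. Between 4n-top and 2n-whole 1 was called, again Mthfd1l (0.961% of all genes), and 3 had an unadjusted p under 0.05 (11.3% of all genes). These 3 comparisons share the 2n-whole libraries, so their values are given side by side and not as repeats of each other.

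Within the tetraploid cells, 4n-top was set against 4n-bottom to ask whether tetraploid cells with 1 nucleus differ from those with 2 nuclei. Of the 10 genes 0 were called (0.0114% of all genes) and 1 had an unadjusted p under 0.05 (2.79% of all genes). DESeq2 also called 0 of the 10, while it called more of all genes than edgeR, as counted further below. Against 4n-bottom, 4n-whole gave 0 called (0.00572% of all genes) and 1 with an unadjusted p under 0.05 (5.57% of all genes). Against 4n-top, 4n-whole gave 0 called (0% of all genes) and 0 with an unadjusted p under 0.05 (4% of all genes). The cells of 4n-whole include those of both fractions, so these last comparisons are not between separate kinds of cell.

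**Figure D2:**
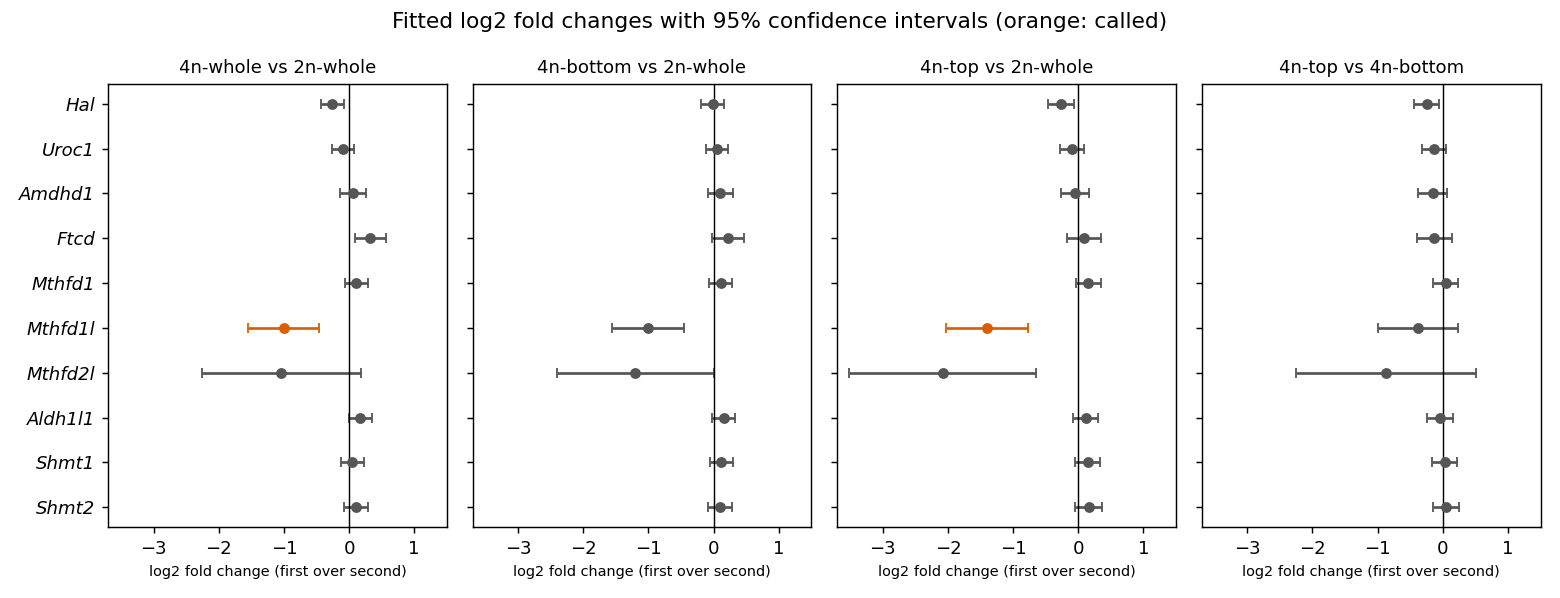
Points are fitted log2 fold changes of the first population over the second, bars are 95% confidence intervals, and orange marks called genes. Mthfd1l was called in 4n-whole (-1.0) and 4n-top (-1.39) against 2n-whole, and the intervals of Mthfd1, Shmt1 and Shmt2 spanned 0 in all 4 panels.

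Hal, the entry enzyme of histidine breakdown, was at 935, 950, 979 and 1083 CPM in the 2n-whole libraries of mice 1 to 4. It was at 736, 971, 806 and 798 CPM in 4n-whole, at 950, 978, 978 and 996 CPM in 4n-bottom, and at 977, 790 and 763 CPM in 4n-top of mice 2 to 4. The 4n-bottom libraries thus lay within the range of 2n-whole, and the 4n-whole and 4n-top libraries lay below it except for those of mouse 2. The log2 fold change was -0.26 (SE 0.086) for 4n-whole against 2n-whole, with 3 of 4 mice lower, and the adjusted p of 0.0723 in edgeR's quasi-likelihood test missed the threshold. It was -0.02 (SE 0.086, adjusted p = 0.972) for 4n-bottom and -0.26 (SE 0.095, adjusted p = 0.246) for 4n-top against 2n-whole. Hal was also lower in 4n-top than in 4n-bottom in 3 of 3 mice (log2 fold change -0.25, 95% interval -0.44 to -0.05, adjusted p = 1). Against 4n-bottom, 4n-whole was lower in 4 of 4 mice (-0.24, 95% interval -0.42 to -0.07, adjusted p = 0.814). In mouse 2 both differences from 4n-bottom were slight, with log2 ratios of -0.0011 for 4n-top and -0.010 for 4n-whole.

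The mean lobular score was -6.45 for 2n-whole, -4.66 for 4n-whole, -5.32 for 4n-bottom and -5.0 for 4n-top. Thus 4n-bottom also scored above 2n-whole, while its Hal level was close to that of 2n-whole. Its pericentral markers were higher than those of 2n-whole (median log2 fold change 1.02), but its periportal markers hardly differed (-0.005). Against 2n-whole, the periportal median was -0.24 for 4n-whole and -0.14 for 4n-top, and Hal was at -0.26 for each. Because the score joins both marker lists, it does not separate their parts. With that score as a covariate in the fit, the log2 fold change of Hal for 4n-whole against 2n-whole was 0.25 (adjusted p = 0.839 in edgeR's quasi-likelihood test), a turn in direction, although this fit called only 1 gene of all tested. Every 4n-whole library scored above every 2n-whole library, so position and population can hardly be told apart in this fit. The part of lobular position in the Hal values was not tested. In bulk libraries, fewer cells with a high level and less RNA in every cell cannot be told apart, and CPM gives a share of the library and not an amount per cell.

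Uroc1, which encodes urocanate hydratase, had no called difference. Its 2n-whole libraries held 730, 768, 788 and 768 CPM, the narrowest spread of the 10 genes in that population, with a coefficient of variation of 3.17%. The 4n-whole libraries held 603, 876, 718 and 691 CPM, the 4n-bottom libraries 728, 844, 850 and 745 CPM, and the 4n-top libraries of mice 2 to 4 held 830, 718 and 686 CPM. In both 4n-whole and 4n-top, mouse 2 was above and the other mice were below the diploid range. The log2 fold change against 2n-whole was -0.09 (95% interval -0.26 to 0.07) in 4n-whole, 0.05 (-0.12 to 0.21) in 4n-bottom and -0.09 (-0.28 to 0.10) in 4n-top.

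Amdhd1, the imidazolonepropionase that opens the ring, varied with the mouse. Mouse 3 was the lowest in each of the 4 populations, at 224 CPM in 2n-whole, 220 CPM in 4n-whole, 247 CPM in 4n-bottom and 189 CPM in 4n-top. Mice 1, 2 and 4 held 336, 316 and 350 CPM in 2n-whole, 289, 392 and 391 CPM in 4n-whole, and 360, 324 and 384 CPM in 4n-bottom. In 4n-top, mice 2 and 4 held 369 and 338 CPM. No library of mouse 3 reached the lowest library of another mouse. The log2 fold changes between populations lay between -0.16 and 0.10 in the 4 comparisons plotted above, and each interval spanned 0.

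Ftcd, the bifunctional enzyme that joins histidine breakdown to folate, was at 399, 478, 529 and 471 CPM in 2n-whole. In 4n-whole it was at 427, 893, 471 and 632 CPM, a spread that mouse 2 set, and mouse 3 was below its own diploid library. The 4n-bottom libraries held 456, 591, 630 and 511 CPM, each above the diploid library of the same mouse. The 4n-top libraries of mice 2 to 4 held 601, 462 and 554 CPM. The log2 fold change of 4n-whole against 2n-whole was 0.33 (SE 0.12, adjusted p = 0.105 in edgeR's quasi-likelihood test). Leaving out 1 mouse or 1 library at a time gave values from 0.12 to 0.48. Without mouse 3 the adjusted p was 0.00456, with the log2 fold change still under 0.5, and without mouse 2 it was 0.7. In 4n-bottom the log2 fold change was 0.22 (95% interval -0.02 to 0.46) with 4 of 4 mice higher, and in 4n-top it was 0.09 (-0.18 to 0.36).

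**Figure D3:**
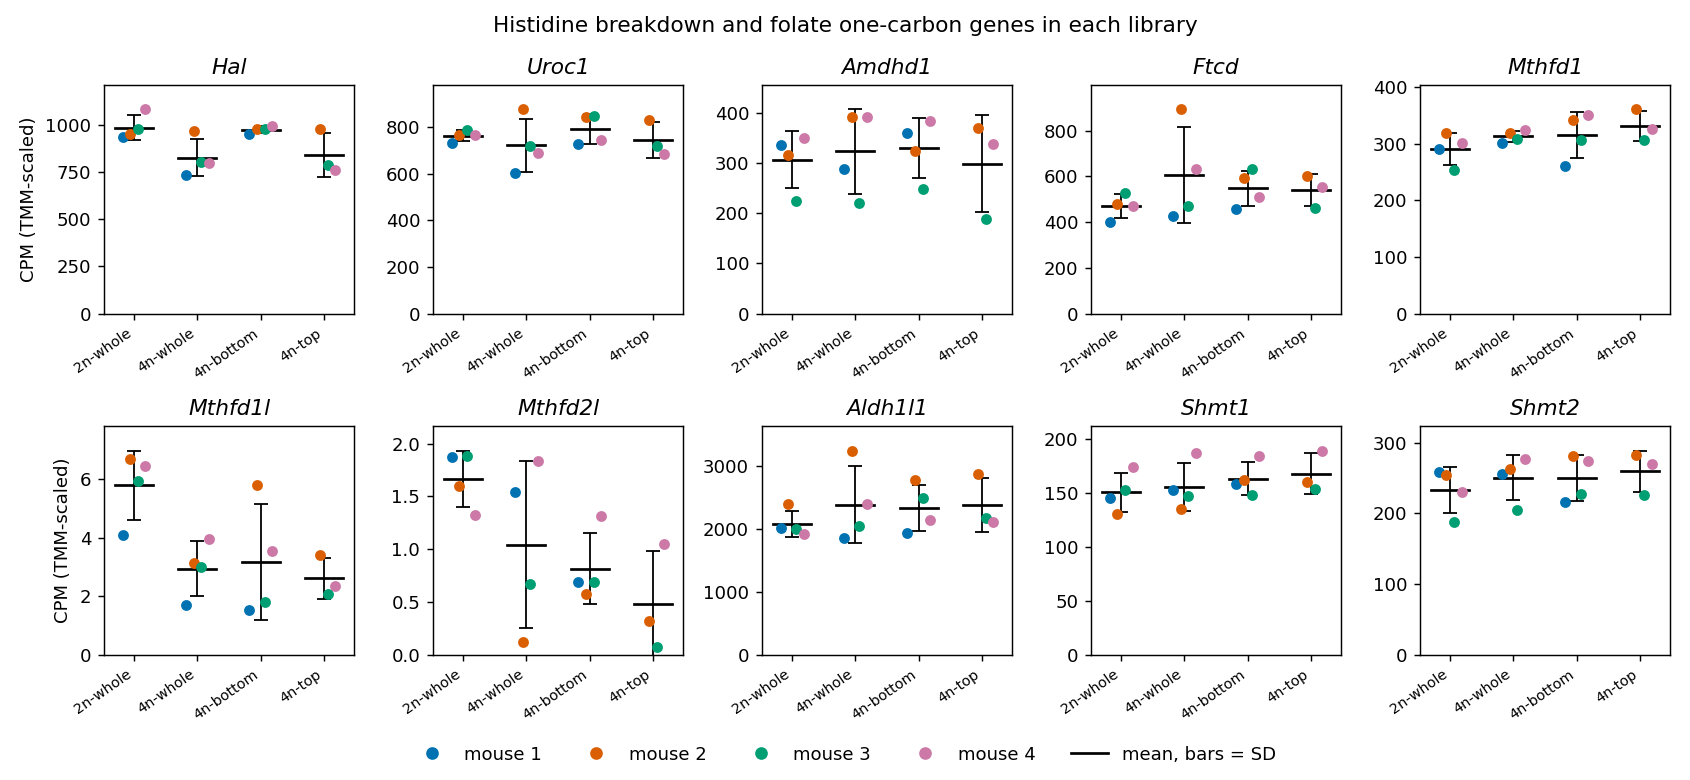
Each panel is 1 gene, points are libraries coloured by mouse, the y axis is CPM from 0, and black bars are the mean and SD of each population, with lower bars ending at 0. The 4n-whole libraries of Mthfd1l (1.70 to 3.95 CPM) all sit below those of 2n-whole (4.09 to 6.70 CPM), and mouse 3 is lowest for Amdhd1 in every population.

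Mthfd1l, the mitochondrial enzyme that releases formate, was the gene of the set with a called difference. It was at 4.09, 6.70, 5.95 and 6.47 CPM in the 2n-whole libraries of mice 1 to 4, from 166 to 225 counts. In 4n-whole it was at 1.70, 3.13, 3.01 and 3.95 CPM, so that both groups were separated, and each mouse was lower in 4n-whole. The 4n-bottom libraries held 1.52, 5.81, 1.81 and 3.55 CPM. Each of these was lower than the diploid library of the same mouse, but mouse 2 lay within the diploid range. The 4n-top libraries of mice 2 to 4 held 3.42, 2.07 and 2.37 CPM, all below the diploid range.

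The fitted log2 fold change of Mthfd1l was -1.0 (SE 0.27, 95% interval -1.55 to -0.45) for 4n-whole against 2n-whole, with an adjusted p of 0.0257 in edgeR's quasi-likelihood test. For 4n-top against 2n-whole it was -1.39 (SE 0.31, interval -2.02 to -0.77), with an adjusted p of 0.0142 and 3 of 3 mice lower. For 4n-bottom it was -1.01 (SE 0.27, interval -1.56 to -0.45), with 4 of 4 mice lower and an adjusted p of 0.114 that missed the threshold. Between 4n-top and 4n-bottom the difference was -0.39, with an interval of -1.0 to 0.23. Both calls were lost in a fit without the replicate block (adjusted p = 0.322 and 0.507). With the lobular score as a covariate they were lost as well (adjusted p = 0.847 and 0.908), with log2 fold changes of -0.85 and -1.28. That fit called 1 gene of all tested in each comparison. The score itself differed between the populations, so the fit can hardly tell position from ploidy. Over all 12 alternatives, that covariate included, the log2 fold change lay between -1.12 and -0.85 in 4n-whole and between -1.57 and -1.14 in 4n-top, against 2n-whole. The 4n-whole call was also lost without mouse 1, 2 or 4 (adjusted p = 0.0682, 0.0779 and 0.109) or without only the 4n-whole library of mouse 2 (0.111), and the 4n-top call was lost without mouse 3 or 4 (0.0933 and 0.236), while the log2 fold change stayed between -1.57 and -0.80 over all omissions of a mouse or library in the 3 comparisons. The 4n-bottom difference passed without mouse 2 (log2 fold change -1.34, adjusted p = 0.0219), without only the 4n-whole library of mouse 2 (0.0489), with DESeq2 (0.0401) and with ComBat-seq before DESeq2 (0.00314).

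Mthfd1l was low in every library, and the summed markers of non-parenchymal cells were likewise lower in 4n-whole at the median. Their summed level ranged from 54.1 to 68.8 CPM in 2n-whole and from 21.7 to 55.0 CPM in 4n-whole, with medians of 59.1 and 32.6 CPM. In 2n-whole the biliary markers made up most of it, with a median sum of 42.6 CPM, against 20.2 CPM in 4n-whole. Sox9 was the largest part of the biliary sum, with means of 30.8 CPM in 2n-whole and 20.4 CPM in 4n-whole. The osteopontin gene Spp1 averaged 9.61 ± 2.53 CPM in 2n-whole libraries and 1.35 ± 0.13 CPM in 4n-whole libraries (both SD, n = 4). Krt19, Krt7 and Epcam averaged 0.717, 0.265 and 0.413 CPM in 2n-whole and 0.0799, 0 and 0.142 CPM in 4n-whole. The part of non-parenchymal cells in the Mthfd1l values was not tested.

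Mthfd2l, the mitochondrial dehydrogenase that acts before Mthfd1l, was the scarcest member. It held 76, 53, 54 and 46 counts in 2n-whole, or 1.87, 1.60, 1.88 and 1.32 CPM. The 4n-whole libraries held 60, 3, 25 and 58 counts, or 1.55, 0.120, 0.666 and 1.83 CPM, so mice 1 and 4 were in the diploid range and mice 2 and 3 below it. In 4n-bottom the counts were 24, 24, 22 and 50 (0.686, 0.576, 0.686 and 1.31 CPM), and in 4n-top of mice 2 to 4 they were 14, 2 and 30 (0.323, 0.0782 and 1.05 CPM). Both of these populations lay below the diploid range, 4n-bottom only just. The log2 fold change against 2n-whole was -1.04 (95% interval -2.26 to 0.19) in 4n-whole, -1.21 (-2.41 to 0.0011) in 4n-bottom and -2.08 (-3.52 to -0.64) in 4n-top. The last had an adjusted p of 0.195 in edgeR's quasi-likelihood test. Leaving out a mouse or library moved these values to between -1.42 and -0.55 in 4n-whole, between -1.47 and -1.07 in 4n-bottom and between -2.80 and -1.43 in 4n-top. With the lobular score as a covariate they were -3.14, -2.46 and -3.59, in a fit that can hardly tell position from population. None of the 3 differences passed edgeR's quasi-likelihood test at these counts.

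Mthfd1, the cytosolic counterpart of both mitochondrial enzymes, had log2 fold changes above 0 against 2n-whole. Its 2n-whole libraries held 291, 318, 253 and 301 CPM, its 4n-whole libraries 302, 319, 308 and 324 CPM, its 4n-bottom libraries 261, 341, 306 and 350 CPM, and its 4n-top libraries of mice 2 to 4 held 360, 307 and 327 CPM. The 4n-whole library was above the 2n-whole library in 4 of 4 mice, by little. The log2 fold change against 2n-whole was 0.11 (95% interval -0.06 to 0.29) in 4n-whole, 0.11 (-0.06 to 0.29) in 4n-bottom and 0.16 (-0.04 to 0.35) in 4n-top, and the smallest adjusted p of the 3 was 0.519 in edgeR's quasi-likelihood test.

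Aldh1l1, the cytosolic formyltetrahydrofolate dehydrogenase, was highest in mouse 2 in each population. Mouse 2 held 2386 CPM in 2n-whole, 3240 CPM in 4n-whole, 2769 CPM in 4n-bottom and 2870 CPM in 4n-top. Mice 1, 3 and 4 held 2008, 1993 and 1923 CPM in 2n-whole, 1847, 2047 and 2397 CPM in 4n-whole, and 1933, 2486 and 2134 CPM in 4n-bottom. Mice 3 and 4 held 2165 and 2106 CPM in 4n-top. The populations overlapped, and the log2 fold change against 2n-whole was 0.17 (95% interval -0.01 to 0.35) in 4n-whole, 0.16 (-0.02 to 0.33) in 4n-bottom and 0.11 (-0.08 to 0.31) in 4n-top.

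Shmt1, the cytosolic serine hydroxymethyltransferase, was at 145, 130, 153 and 174 CPM in 2n-whole, 153, 135, 148 and 187 CPM in 4n-whole, and 158, 162, 148 and 184 CPM in 4n-bottom. The 4n-top libraries of mice 2 to 4 held 161, 154 and 189 CPM. Mouse 4 was the highest in each population. Shmt2, its mitochondrial counterpart, was at 259, 254, 187 and 231 CPM in 2n-whole, 256, 263, 205 and 277 CPM in 4n-whole, and 216, 281, 228 and 274 CPM in 4n-bottom. Its 4n-top libraries held 282, 226 and 269 CPM. All populations overlapped for both genes. The log2 fold changes of 4n-whole against 2n-whole were 0.05 (95% interval -0.13 to 0.22) for Shmt1 and 0.10 (-0.08 to 0.29) for Shmt2. For 4n-top against 2n-whole they were 0.15 (-0.05 to 0.34) and 0.16 (-0.05 to 0.36).

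Differences between mice were called more often than differences between populations. By an F test over the 4 mice in the same fit, 6 of the 10 genes had an adjusted p under 0.05, against 19.2% of all genes tested. They were Amdhd1 (adjusted p = 6.47e-06), Aldh1l1 (0.000387), Ftcd (0.0139), Mthfd1l (0.0167), Shmt2 (0.0188) and Shmt1 (0.0196), all from edgeR's quasi-likelihood test. By the same test over the 4 populations 1 of the 10 passed, Mthfd1l (adjusted p = 0.0152), against 1.95% of all genes. The mouse accounted for 84.8% of the sum of squares of log2 CPM in Amdhd1, and the population for 2.97%. Hal was the reverse, with 18.0% for the mouse and 57.9% for the population. The median shares over the 10 genes were 51.5% for the mouse and 18.3% for the population, and over all genes tested they were 31.9% and 18.1%. Each mouse was also 1 isolation, so the animal and the preparation cannot be told apart.

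**Figure D4:**
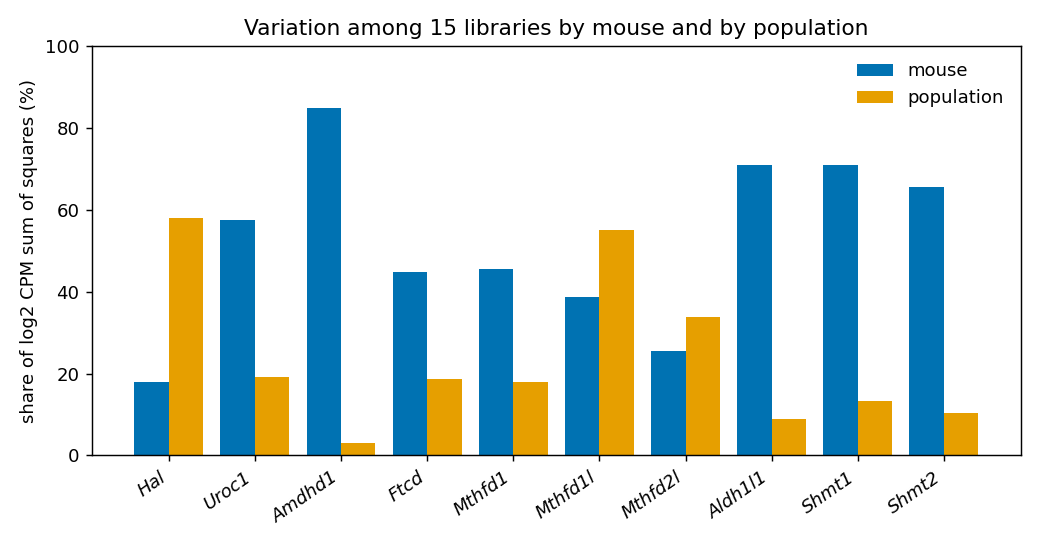
Bars give the percentage of the sum of squares of log2 CPM over 15 libraries that goes with the mouse (blue) and with the population (orange). The mouse share is 84.8% for Amdhd1, while Hal (57.9%) and Mthfd1l (55.1%) have the highest population shares.

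Some members varied together across the libraries. Fitted mouse effects were removed from log2 CPM, while differences between populations were kept. Over the 15 libraries Pearson's r was then 0.86 for Hal with Uroc1, the first steps of histidine breakdown, 0.85 for Mthfd1 with Shmt2 and 0.84 for Ftcd with Aldh1l1. It was 0.68 for the mitochondrial pair Mthfd1l and Mthfd2l, 0.49 for the neighbours Hal and Amdhd1, and -0.01 for Hal with Ftcd, the first and last steps. The lowest value was -0.52, for Mthfd1l with Aldh1l1. Among all tested genes, the pattern most like that of Hal was Cryl1 (r = 0.95), for Uroc1 it was the glycine decarboxylase gene Gldc (0.92), for Ftcd Plekha6 (0.97) and for Mthfd1l Gm34004 (0.94). These values describe 15 libraries that share mice, sorts and depth, and they carry no test.

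Among the other folate genes, Fpgs was called higher in 4n-whole than in 2n-whole. Fpgs, which adds the glutamate tail that keeps folate in the cell, averaged 110 ± 7.2 CPM in the 2n-whole libraries and 161 ± 34.8 CPM in the 4n-whole libraries (both SD, n = 4). Its log2 fold change was 0.54 (SE 0.10, adjusted p = 0.00175 in edgeR's quasi-likelihood test), with 4 of 4 mice higher. It was not called without the replicate block (log2 fold change 0.55, adjusted p = 0.136) or with the lobular score as a covariate (0.55, adjusted p = 0.725). Both of these fits called far fewer of all genes than the main fit did. Without mouse 2 or mouse 4, or without only the 4n-whole library of mouse 2, the log2 fold change of Fpgs fell to between 0.44 and 0.49, under the threshold of 0.5.

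Of 8 other histidine genes, Hnmt, the histamine methyltransferase, was called lower in 4n-whole. It averaged 25.3 ± 3.3 CPM among diploid libraries and 14.1 ± 3.9 CPM among the 4n-whole ones (both SD, n = 4). Its log2 fold change was -0.85 (SE 0.16, adjusted p = 0.00149 in edgeR's quasi-likelihood test) with 4 of 4 mice lower. Its call held without each mouse in turn and was lost without the replicate block (log2 fold change -0.85, adjusted p = 0.131) and with the lobular score as a covariate (-0.60, adjusted p = 0.803). As for Fpgs, these last fits called far fewer of all genes than the main fit. The 9 genes of glycine and choline breakdown that feed folate, the 7 of serine synthesis and breakdown and the 9 of the methionine cycle had 0 called in 4n-whole against 2n-whole, with 3, 2 and 4 at an unadjusted p under 0.05, a level that 20.4% of all genes reached in that comparison. In the other 5 comparisons 0 genes of these 5 lists were called by edgeR's quasi-likelihood test. The position markers moved far more: 13 of 14 pericentral markers were called higher and 4 of 12 periportal markers lower in 4n-whole than in 2n-whole, with median log2 fold changes of 1.60 and -0.24.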

How the data were processed

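RNA-seq libraries were made from 20 ng of total RNA with a stranded SMART-Seq kit, per the labels. Reads were aligned by the authors with STAR 2.7.11a to GRCm39 and counted per gene with featureCounts of the Subread package, and the deposited values are raw counts per gene. The annotation, strand and read-pair settings of the counting are not given in the sources used here. Between 74.2% and 81.4% of the counts from 1 to 10 in a library were even, so a count may not be 1 fragment.

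The counts of all 15 libraries were analysed with edgeR 4.0.16 in R 4.3.3 (TMM scaling, filterByExpr at 10 counts and a total of 15, quasi-likelihood F test, population and mouse as factors, Benjamini-Hochberg adjustment over 17488 genes). The call thresholds (adjusted p 0.05, log2 fold change 0.5 either way) are those of the study's methods. Intervals are 95% and use the fit's degrees of freedom. CPM used TMM-scaled library sizes. CPM per kb used the bases covered by any exon of a gene, over all its transcripts in GENCODE vM39. This length can exceed that of a single transcript, so levels per kb depend in part on the annotation. Sharing of a mouse comes from the subject number in the labels. Libraries of the same mouse deviated from their group means with a mean correlation of 0.158 (range 0.0845 to 0.227 over 21 pairs). For libraries of different mice in different populations the mean was -0.0526 (range -0.207 to 0.0919 over 63 pairs), so the ranges overlapped slightly.

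Alternatives were no replicate block, DESeq2 1.42.0 with its own size factors and test, ComBat-seq (sva 3.50.0) before DESeq2, no filter, only the compared populations, a lobular covariate, and leaving out each mouse. The F tests over mice and over populations and the fit without the 4n-whole library of mouse 2 were added after seeing the data. The members, the gene lists and the tests were chosen with earlier results of these data known. All 10 members were named, and other genes of the pathway lists only where called. A few results of the pathway lists and of the most similar genes are not reported here. The fit was tested on simulated counts. Promoter windows were the 250 bases before the start of the canonical transcript.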

Additional observations from a re-analysis of the deposited data

Results flagged for a closer look

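Over 30 groups of 4 libraries, 1 held a library far from the others, where chance gives about 1 in 20. Mthfd2l was at 1.31 CPM in the 4n-bottom library of mouse 4, while the other 3 libraries of that population were close together, and the gap took up a share of 0.851 of the range and passed Dixon's 95% critical value. It rests on 50 counts.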

How the results depend on the processing

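Of 516 values of 43 log2 fold changes under the alternatives, 473 kept their direction and their side of the threshold, 17 lost a call, 5 gained 1 and 21 changed sign, the last all in values that were not called. The cause of these changes was not tested. Without the replicate block 0 members were called in 4n-whole against 2n-whole and 0 in 4n-top against 2n-whole, where over all genes 40 and 2 were called in place of 607 and 168, and the 4n-bottom count went from 81 to 0. With the lobular covariate 0 members were called in both, and 1 gene of all tested in each of them, while the log2 fold change of Mthfd1l was -0.85 and -1.28 in place of -1.0 and -1.39. DESeq2 with the block and ComBat-seq before DESeq2 each called 1 member in 4n-bottom against 2n-whole, and ComBat-seq before DESeq2 called 2 in 4n-top against 2n-whole, Mthfd2l being the added gene (adjusted p = 0.0237). For 4n-whole, 4n-bottom and 4n-top against 2n-whole, where 607, 81 and 168 of all genes were called, ComBat-seq before DESeq2 called 1162, 276 and 543, DESeq2 with the block 814, 143 and 328, no filter 709, 145 and 261, and the fit of only the compared populations 305, 92 and 300. For 4n-top against 4n-bottom, with 2 called, these were 17, 44, 25 and 15. Leaving out a mouse or a library gave 0 to 1 called members in each of the 3 comparisons with 2n-whole.

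With the lobular covariate the log2 fold change turned to 0.25 for Hal, 0.30 for Uroc1 and -0.029 for Shmt2 in 4n-whole, to 0.30 for Hal in 4n-bottom, and to 0.13 for Hal, 0.22 for Uroc1 and 0.42 for Amdhd1 in 4n-top, all against 2n-whole, and to 0.0029 for Aldh1l1 in 4n-top against 4n-bottom. In that last comparison Aldh1l1 was at 0.030 without the replicate block, and with only the compared populations Mthfd1 was at -0.0053 and Shmt2 at -0.0098. Leaving out a mouse or library spanned 0 in Amdhd1 for 4n-whole (-0.033 to 0.15) and 4n-top (-0.20 to 0.041), Ftcd for 4n-top (-0.0035 to 0.22) and Hal for 4n-bottom (-0.049 to 0.0098) against 2n-whole. For 4n-top against 4n-bottom it spanned 0 in Ftcd (-0.24 to 0.013), Mthfd1 (-0.0053 to 0.10), Aldh1l1 (-0.084 to 0.015) and Shmt2 (-0.010 to 0.084). A further 19 values, in which 4n-whole was set against 4n-bottom or 4n-top and which are not reported singly, had 0 calls in 228 alternative values. The low counts of Mthfd1l (53 to 242 a library) and Mthfd2l (2 to 76) limit their precision.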

Other observations

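The ratio of Ftcd to Hal, the last and first steps of histidine breakdown, needs no library scaling. On the log2 scale it lay between -1.23 and -0.89 in the 2n-whole libraries, between -0.79 and -0.12 in 4n-whole, between -1.06 and -0.63 in 4n-bottom and between -0.77 and -0.46 in 4n-top. It was higher in 4n-whole than in 2n-whole in each mouse, from -1.23 to -0.79 in mouse 1, -0.99 to -0.12 in mouse 2, -0.89 to -0.77 in mouse 3 and -1.20 to -0.34 in mouse 4. The ratio was chosen after the values of both genes were seen and was not tested.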
